A study of Homo sapiens with 18 samples.

Results

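CADM3 and ACKR1 are adjacent protein-coding genes on chromosome 1, and they were examined in 18 RNA sequencing libraries of 3 human breast epithelial lines. They are 2 of the 35933 genes with values, and both were chosen by their normalized counts in MCF10AT1, which went from near 0 in the negative control libraries to high in those labelled METTL3 CRISPR knockdown. The MCF10AT1 values that chose them are therefore given as a description, and only the other lines and the other genes were tested. MCF10A is a spontaneously immortalized, non-tumorigenic line. MCF10AT1 carries a stably integrated mutant HRas in that background. Serial xenografts of MCF10AT1 in mice gave rise to MCF10CA1h. In each line, cells that had received a negative control CRISPR construct (control) were set against cells that had received a construct targeting METTL3, the main m6A methyltransferase of mRNA (METTL3), with replicates a, b and c in each of the 6 groups. Both arms had been transfected, sorted for mCherry and grown from single cells, so each group is 1 clonal line, and a difference between clones cannot be told apart from one between constructs. No label says that the replicates were separate cultures, so p-values measure only the spread between these libraries, which may be technical.

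CADM3, also called nectin-like 1, is an immunoglobulin-type cell adhesion molecule of the CADM family, known mainly from neurons, where it binds other CADM and nectin proteins across the cell contact and band 4.1 and PDZ scaffold proteins inside the cell. ACKR1, the Duffy antigen, is an atypical chemokine receptor known from red cells and the endothelium of small veins. It binds many inflammatory CXC and CC chemokines but does not signal through G proteins, and it can take up, retain or transport its ligands.

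In the annotation of hg38, the build named for the deposited values, CADM3 (ENSG00000162706) lay on the plus strand at chr1:159171609-159203313 and ACKR1 (ENSG00000213088) on the same strand at chr1:159204875-159206500. The end of CADM3 and the start of ACKR1 were 1.56 kb apart, and the starts were 33.3 kb apart. The canonical CADM3 transcript had 9 exons and 3739 bases, and that of ACKR1 had 2 exons and 1146 bases. A long noncoding gene on the opposite strand, CADM3-AS1 (ENSG00000225670, chr1:159194325-159207973), ran across all of ACKR1 and the 3′ part of CADM3. Of its 5208 exon bases, 1408 (27.0%) lay in exons of CADM3, and 0 lay in exons of ACKR1. The gene of AIM2, a cytoplasmic DNA sensor, lay on the minus strand and overlapped the first 16235 bases of CADM3.

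Pseudo-alignment assigns reads by short stretches shared with a transcript. No stretch of 31 bases in ACKR1 transcripts occurred in transcripts of any other gene, on either strand, and none was shared with CADM3. Of the 3876 distinct stretches in CADM3 transcripts, 1265 (32.6%) occurred in CADM3-AS1 on the opposite strand. The libraries were stranded, but whether the quantification used strand is not given in the sources used here. Reads of CADM3 and CADM3-AS1 from the shared exons could therefore not be separated with certainty. ACKR1 shared no stretch, but only annotated transcripts were compared. Reads from unspliced or unannotated RNA that crosses ACKR1 were not examined.

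The 250 bases before the RefSeq start of CADM3 are shown because the gene's level differed so widely between libraries. They were read from the RefSeq promoter table (GRCh38.p14, plus strand, chr1:159171365-159171614), in which 1 of the 2 genes was found. Capitals mark the motif TATTTAA. Its first base lies 29 bases before the start.
CADM3 promoter: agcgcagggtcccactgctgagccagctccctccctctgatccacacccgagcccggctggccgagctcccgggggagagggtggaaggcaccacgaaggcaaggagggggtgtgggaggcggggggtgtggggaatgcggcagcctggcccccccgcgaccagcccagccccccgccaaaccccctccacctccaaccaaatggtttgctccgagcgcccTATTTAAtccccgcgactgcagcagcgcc
Its GC content was 70.4%, against a median of 58% over 35116 promoter windows of the same length, and it held 16 CG dinucleotides against a median of 11. TATTTAA, which was searched after the sequence had been seen, was present on either strand in 4.17% of all windows. CANNTG, the E-box, occurred at 1 place, 52 bases before the start, and was held by 61.8% of windows. The other motifs searched on both strands were TATAAA, held by 10.7% of windows, GGGCGG by 42.6%, GATA by 45.6%, TGACTCA by 4.20% and CCAAT by 32.0%. None of these strings of letters was in the CADM3 window. GGACT, a form of the m6A consensus, occurred at 6 places in the canonical CADM3 transcript, or 1.60 per kb. It occurred at 3 places in ACKR1, or 2.62 per kb, and the median over 19701 coding transcripts was 0.923 per kb. These matches describe letters and say nothing about methylation in these cells.

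The targeted gene was checked first. METTL3 RNA was 751.90, 686.48 and 459.07 in MCF10A controls a, b and c and 938.84, 981.13 and 509.79 in the METTL3 libraries, so the groups overlapped. The log2 difference was 0.33 (SE 0.30, adjusted p = 0.618 by limma). In MCF10AT1 it was -0.17 (SE 0.26, adjusted p = 0.707), also with overlapping groups, and in MCF10CA1h it was -0.49 (SE 0.12, adjusted p = 0.0234). The RNA level in these libraries therefore did not check the label of the MCF10A and MCF10AT1 METTL3 libraries. The study also examined METTL3 protein by Western blotting, METTL3 mRNA by real-time PCR and m6A levels in these lines. None of these measures was analysed here, and a METTL3 library below means a library labelled so.

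The MCF10AT1 METTL3 libraries also stood apart from the MCF10AT1 controls in markers of the labelled cell type, breast epithelium. Of 12 basal epithelial markers, 9 were lower, against 13.0% of all genes called in either direction, among them COL17A1, KRT6A, CDH1 and EPCAM. E-cadherin (CDH1) was 3474.85, 2104.61 and 6138.43 in the controls and 11.57, 31.74 and 79.24 in the METTL3 libraries, with a log2 difference of -6.79 (SE 0.68, adjusted p = 0.000474). TP63, ITGB4 and LAMB3 did not pass the test. The summed level of the 12 markers was 163571 to 223859 in the controls and 63511 to 182686 in the METTL3 libraries, and none was at 0 in all 3 METTL3 libraries. Most of the METTL3 sum was the integrin ITGB4, at 21514.2 to 51828.9 in the controls and 48087.9 to 167977 in the METTL3 libraries. The other 11 markers summed to 142057 to 172030 in the controls and 14709 to 15902 in the METTL3 libraries, so those groups were far apart. Of 10 fibroblast and mesenchymal markers, 7 were tested, and VIM, COL3A1 and THY1 were higher, while COL1A1, PDGFRB, FAP and DCN did not pass. COL3A1 and THY1 passed the filter on low values only through the METTL3 libraries. The summed level was 3795 to 5109 in the controls and 62231 to 74520 in the METTL3 libraries, nearly all of it VIM, without which it was 470 to 740 and 2816 to 4584. With the replicate letter as a block, 10 of the epithelial markers were lower and ITGB4 was higher, against 24.5% of all genes called. In MCF10A 1 of the 12 was higher (2.65% of all genes called), KRT5, a call lost without any 1 of the 6 libraries, and the block gave 1 higher and 4 lower (7.60% called). In MCF10CA1h 8 of 12 were higher, against 12.8% of all genes called. Every MCF10AT1 value that follows was measured in these same libraries, and the part of this marker shift in it was not tested. In bulk RNA, fewer cells of a type and less RNA per cell cannot be told apart.

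In MCF10AT1, CADM3 went from the bottom of the range to a highly expressed gene. The normalized counts in controls a, b and c were 0, 1.81 and 1.72. In METTL3 libraries a, b and c they were 7778.66, 11304.80 and 19143.1, with a mean of 12742 ± 5817 (SD, n = 3). Every METTL3 library lay far above every control, and library c was the highest and a the lowest of the METTL3 group. On the scale of log2(normalized count + 1), the difference was 12.56.

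ACKR1 was listed at 0 in all 3 MCF10AT1 controls. It was 1276.38, 1782.67 and 2136.61 in METTL3 libraries a, b and c, with a mean of 1732 ± 432 (SD, n = 3), a difference of 10.73 on the log2(normalized count + 1) scale. The libraries were in the same order as for CADM3, with a lowest and c highest. No fold is given for either gene, because controls at 0 have no counts from which a bound could be computed.

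**Figure D1:**
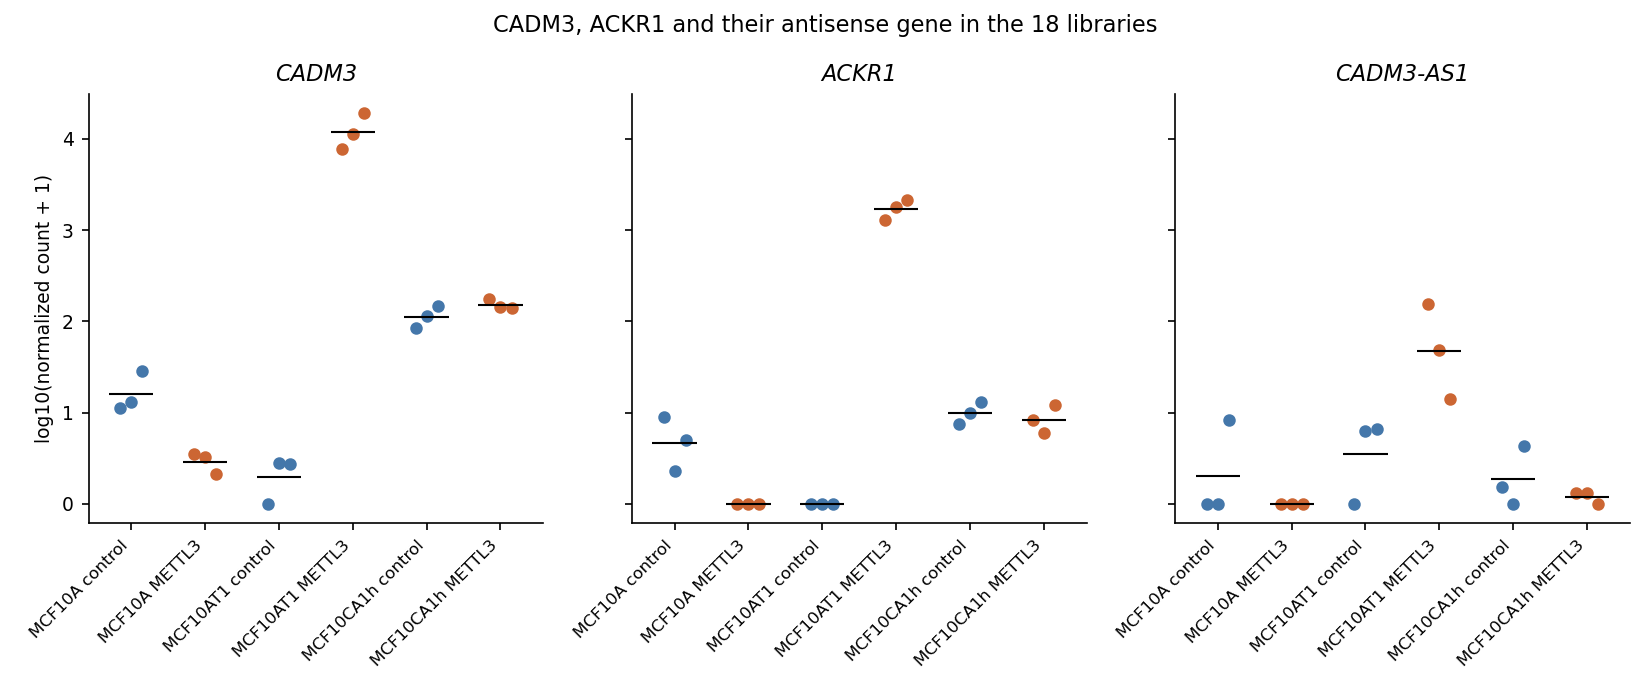
Level of CADM3, ACKR1 and the antisense gene CADM3-AS1, as log10(normalized count + 1), in each library of the 6 groups (blue, control; orange, METTL3; horizontal lines, mean of the 3 plotted values). CADM3 in the MCF10AT1 METTL3 libraries sits between 7778.66 and 19143.1 normalized counts, above every other group, and ACKR1 between 1276.38 and 2136.61.

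In MCF10A both genes were at low levels and moved the other way. CADM3 was 10.34, 12.03 and 27.28 in controls a, b and c and 2.50, 2.26 and 1.11 in the METTL3 libraries. ACKR1 was 7.92, 1.31 and 3.95 in the controls and was listed at 0 in all 3 METTL3 libraries. For each gene the METTL3 libraries were all below the controls. The log2 differences were -2.48 and -2.22. Groups that did not overlap with METTL3 lower made up 8.69% of the 33141 genes above 0 in any MCF10A library, which is the background for this pattern. The two-sided exact permutation test gave p = 0.1 for each gene, the smallest p that 3 libraries against 3 allow. Both genes had a mean below the minimum of 10 normalized counts in MCF10A and so were outside the fit across genes. When limma was run with no filter, the adjusted p was 0.0823 for CADM3 and 0.103 for ACKR1. In a joint fit of the 18 libraries the adjusted p was 0.00545 for CADM3 and 0.0185 for ACKR1, with 3.84% of all genes called. That fit pooled the spread over all 18 libraries, so the MCF10AT1 values that chose both genes entered these p-values. They are therefore a description and not a separate test of MCF10A. ACKR1 passed the filter of that fit only through the MCF10AT1 METTL3 libraries, without which its mean was 4.24, against 57.1 for CADM3.

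In MCF10CA1h CADM3 was expressed in both arms. It was 83.80, 114.54 and 145.03 in the controls and 173.25, 143.77 and 137.46 in the METTL3 libraries, and the groups overlapped. The log2 difference was 0.43 (SE 0.23, adjusted p = 0.258 by limma, 95% interval -0.08 to 0.94), and the exact permutation p was 0.3. The interval spans a METTL3 level between 0.944 and 1.92 times that of the control, so these libraries leave room for a difference of that size. ACKR1 was 6.48, 8.77 and 12.06 in the controls and 7.27, 4.92 and 10.96 in the METTL3 libraries, with a log2 difference of -0.23 and an exact permutation p of 0.6. It was below the filter, the groups overlapped, and without METTL3 replicate b the difference was 0.0145, of the opposite sign.

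Ordered by group mean, CADM3 was highest in MCF10AT1 METTL3, followed by MCF10CA1h METTL3 (151 ± 19.1) and MCF10CA1h control (114 ± 30.6), which overlapped each other. MCF10A control (16.6 ± 9.33) came next. MCF10A METTL3 (1.96 ± 0.743) and MCF10AT1 control (1.18 ± 1.02), the lowest groups, also overlapped. All of these are means ± SD of 3 libraries in normalized counts. For ACKR1, MCF10CA1h control (9.10 ± 2.80), MCF10CA1h METTL3 (7.72 ± 3.04) and MCF10A control (4.39 ± 3.33) followed MCF10AT1 METTL3 without overlapping it. Among these followers, each overlapped the next in the order. MCF10A METTL3 and MCF10AT1 control, listed at 0 throughout, came last and did not overlap MCF10A control. Among the controls alone, both genes were lowest in MCF10AT1, and for CADM3 the controls of the 3 lines did not overlap. Lines were not tested against each other.

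The ratio of the genes varied between libraries, and this was not tested. In MCF10AT1 METTL3 libraries a, b and c the ACKR1 level was 16.4%, 15.8% and 11.2% of the CADM3 level. In MCF10CA1h it was 7.73%, 7.66% and 8.32% in the controls and 4.20%, 3.42% and 7.97% in the METTL3 libraries. In MCF10A controls a, b and c it was 76.6%, 10.9% and 14.5%. ACKR1 was below the filter on low values in MCF10A and MCF10CA1h, so the ratios there rest on levels near the floor. Because the CADM3 transcript is longer, the levels per kb of canonical transcript were closer to each other. In MCF10AT1 METTL3 they were 2080, 3023 and 5120 normalized counts per kb for CADM3 and 1114, 1556 and 1864 for ACKR1, so ACKR1 stood at 53.5%, 51.4% and 36.4% of CADM3. Ranked per kb among 17677 protein-coding genes, CADM3 was at rank 1062, 785 and 370 in these libraries and ACKR1 at rank 1756, 1372 and 993. In MCF10CA1h CADM3 stood between ranks 9207 and 10490.

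The antisense gene CADM3-AS1 was low in every group but MCF10AT1 METTL3. It was 0, 5.32 and 5.69 in MCF10AT1 controls a, b and c and 154.80, 46.92 and 13.09 in the METTL3 libraries. The groups did not overlap, but the order of the libraries was the reverse of that of CADM3, with a highest and c lowest. The log2 difference was 3.76 (SE 1.09), with an adjusted p of 0.0592 by limma, and 0.0208 with the replicate letter as a block. Elsewhere the highest value was 7.28 normalized counts, in MCF10A control c, and all MCF10A METTL3 libraries were listed at 0.

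To see whether other genes of the region moved with the pair, the 41 other genes with values whose start lay within 1 Mb of that of CADM3 were examined. Most were hardly expressed: 26 of 41 were below 10 normalized counts in every MCF10AT1 library, as were 29 in MCF10A and 26 in MCF10CA1h. In MCF10AT1, 3 of the 11 neighbours tested passed the threshold, against 13.0% of all genes tested. Of the 11, CADM3-AS1 and the noncoding SNHG28 passed the filter on low values only through the METTL3 libraries, where they were high, so that their place among the tested genes was set by their difference. Of the 9 neighbours with both group means of at least 10, 3 were called, with a median log2 difference of 0.28. Among all genes with both group means of at least 10, 10.3% were called in this line, 2.22% in MCF10A and 12.6% in MCF10CA1h.

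DUSP23, a small dual-specificity phosphatase 609.3 kb downstream, was 1538.82, 1683.46 and 656.31 in MCF10AT1 controls and 3490.30, 3982.79 and 3147.02 in METTL3 libraries (log2 difference 1.56, SE 0.38, adjusted p = 0.0321 by limma). CFAP45, a ciliary protein gene, was also higher, with 10.20, 30.77 and 16.41 in the controls and 100.84, 88.02 and 79.75 in the METTL3 libraries (log2 difference 2.29, adjusted p = 0.0248). IGSF9, an immunoglobulin-type adhesion molecule, was lower, with 363.14, 294.17 and 447.00 in the controls and 46.16, 42.61 and 24.41 in the METTL3 libraries (log2 difference -3.28, adjusted p = 0.00137). All of these lay more than 0.5 Mb from CADM3, and IFI16 and CADM3-AS1, the tested genes within 0.5 Mb, did not pass. With the replicate letter as a block, 6 of the 11 neighbours passed, 4 higher and 2 lower, against 24.5% of all genes. IGSF9 kept its call whichever library was left out, but it was the lone call without control a, METTL3 a or METTL3 b. Without METTL3 c the calls were IGSF9 and CADM3-AS1.

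**Figure D2:**
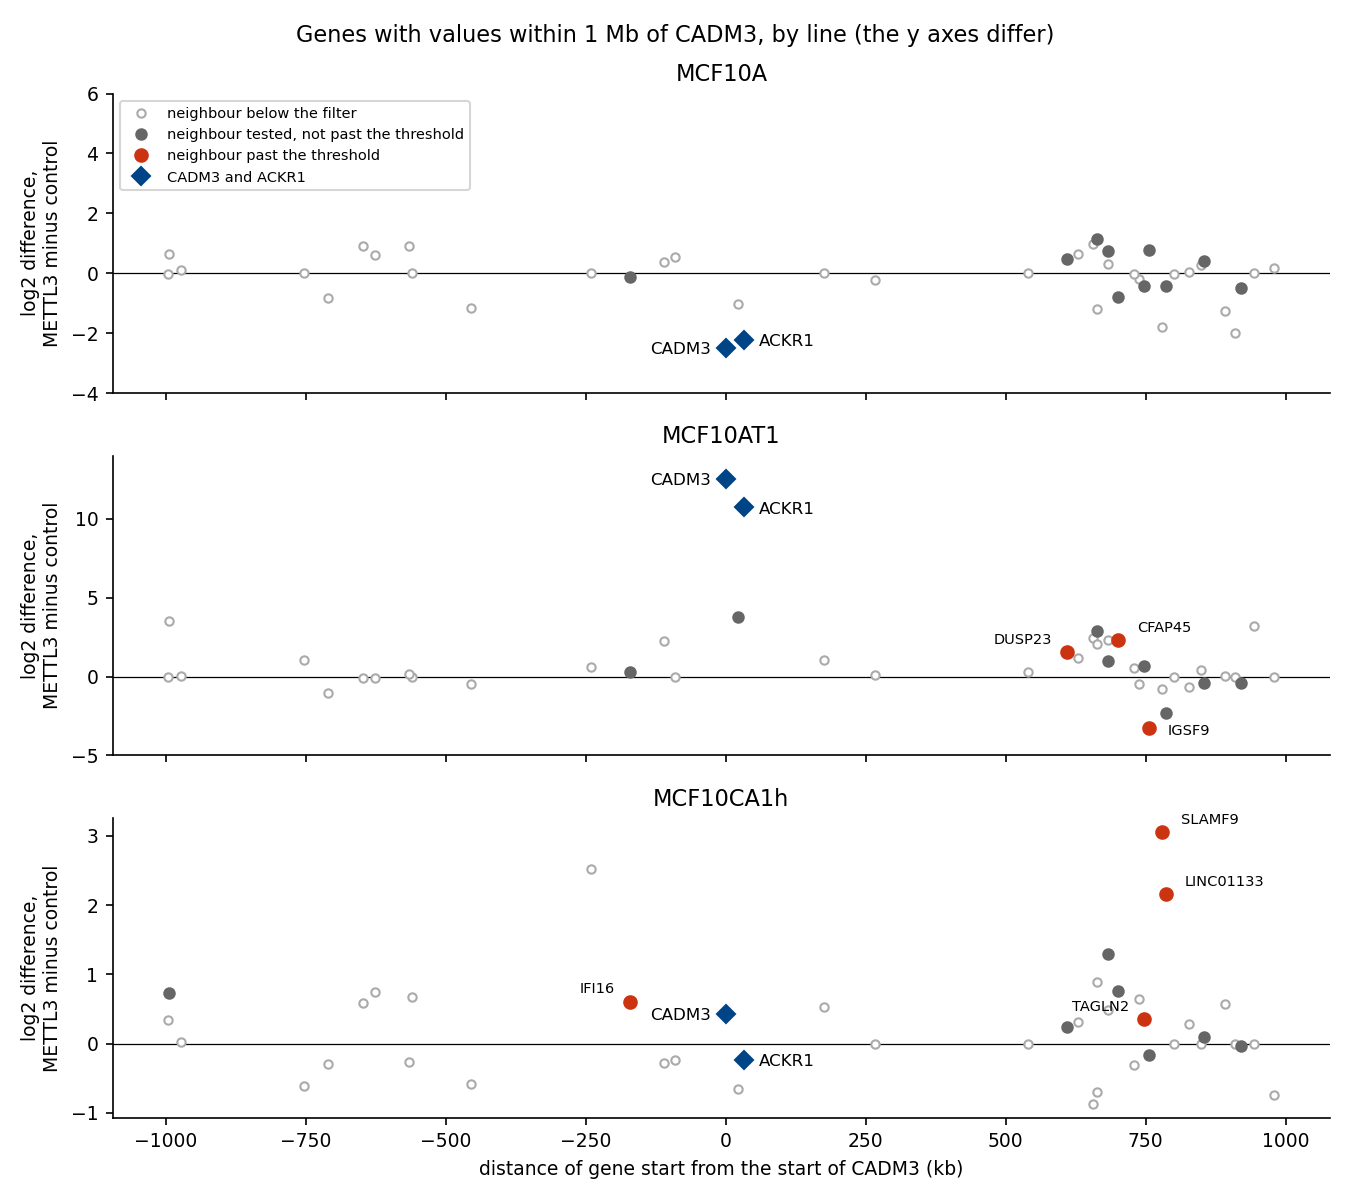
Log2 difference, METTL3 minus control on the log2(normalized count + 1) scale, of CADM3, ACKR1 and 41 neighbouring genes, against the distance of each gene's start from that of CADM3 in kb (open circles, mean below 10; grey, tested; red, adjusted p under 0.05). In MCF10AT1 CADM3 (12.56) and ACKR1 (10.73) sit above every neighbour, the nearest of which in size was CADM3-AS1 at 3.76.

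The genes next to the pair were mostly silent. Upstream, the pseudogene RAD1P2 did not exceed 1.61 in any library, and AIM2, which overlaps CADM3, ranged from 1.95 to 8.28 in MCF10AT1 METTL3 libraries and was listed at 0 in the controls. IFI16, an interferon-inducible DNA sensor, was expressed throughout, with 1751.18 to 3217.62 in MCF10AT1 controls and 2374.65 to 3128.76 in METTL3 libraries. PYHIN1, of the same family, did not exceed 1.03 in MCF10AT1, and the olfactory receptor OR6K3 did not exceed 1.77. Downstream of ACKR1, the unnamed gene ENSG00000228560 reached 7.81, the olfactory receptor OR10J1 reached 2.28 and CRP, the acute-phase C-reactive protein, reached 5.03 in MCF10AT1. Beyond DUSP23, the Fc receptor-like gene FCRL6 did not exceed 3.31.

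In MCF10A, 0 of 10 neighbours passed the threshold in limma, against 2.65% of all genes, and 1 had an unadjusted p under 0.05. The block also gave 0 calls there, against 7.60% of all genes, whereas without control a DUSP23 passed. In MCF10CA1h, 4 of 11 neighbours were higher, against 12.8% of all genes, or 3 of the 9 with both group means of at least 10 (12.6%), since SLAMF9 passed the filter only through the METTL3 libraries. SLAMF9, a receptor of the SLAM family, was 2.56, 3.32 and 0.94 in the controls and 14.88, 35.35 and 28.78 in the METTL3 libraries (log2 difference 3.06, adjusted p = 0.00694). The noncoding RNA gene LINC01133 (2.16, adjusted p = 0.00164), IFI16 (0.60, adjusted p = 0.00458) and the actin-binding TAGLN2 (0.35, adjusted p = 0.0345) were also higher by limma. The first 3 kept their calls in all 6 fits that left out a library, while TAGLN2 kept its call in 1 of the 6, that without METTL3 a, where CFAP45 passed too.

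The pair was compared with other genes of the same pattern in MCF10AT1. A level of at most 5 normalized counts in every control and at least 500 in every METTL3 library was found for 13 genes, or 0.0810% of the 16050 tested, and by construction of the choice CADM3 and ACKR1 were among them. CADM3 had the highest mean of the 13 and ACKR1 the 6th highest. The others were the cytokine CSF3, the proteoglycan SRGN, FABP4, THY1, the receptors F2RL2 and CMKLR1, CHST2, SYNGR1, haptoglobin (HP), the collagen chain COL6A2 and P3H3. The 13 genes were spread over 11 chromosomes, and CADM3 and ACKR1 were the 1 pair within 1 Mb of each other. They were chosen as adjacent genes that both had this pattern, so their presence here as a pair was fixed by the choice. Just inside the limit, HP had a lowest METTL3 value of 562.33, and just outside it COL3A1 had 384.92. With a limit of 200 in place of 500, 21 genes had the pattern.

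**Figure D3:**
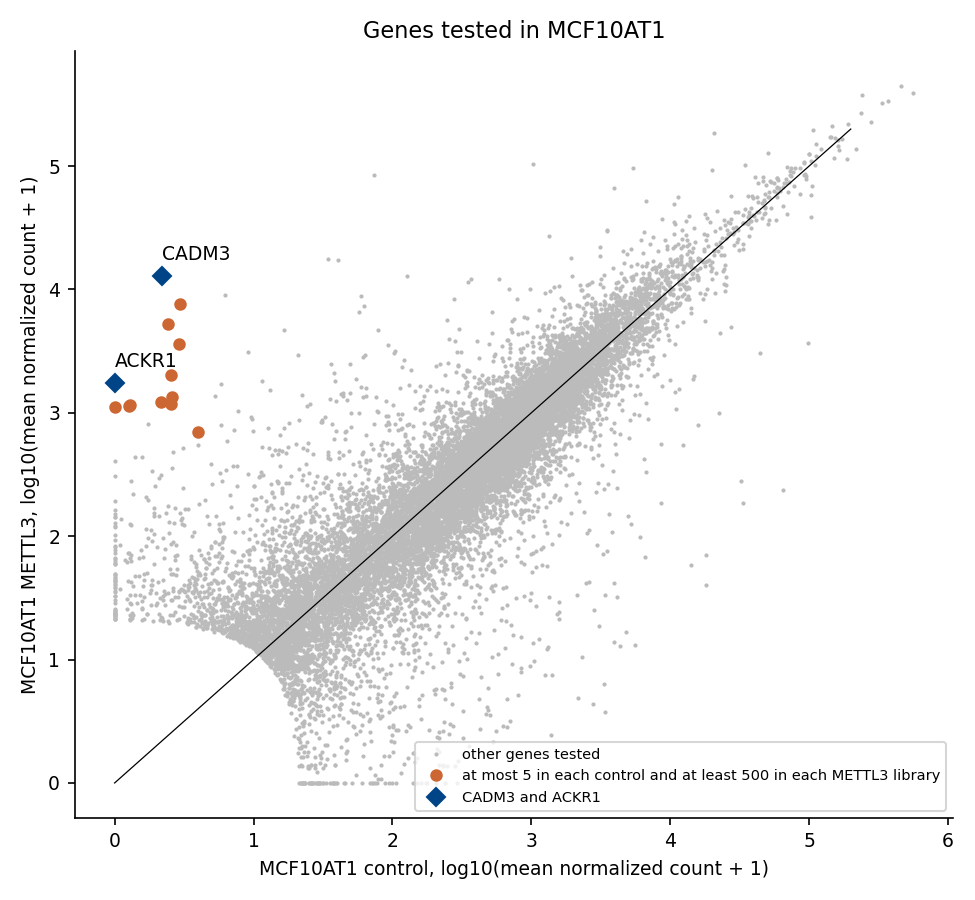
Mean of the 3 METTL3 libraries against the mean of the 3 controls in MCF10AT1, as log10(mean normalized count + 1), for the 16050 genes tested (grey), with the line of equal values. Orange points are genes at most 5 in each control and at least 500 in each METTL3 library, and blue diamonds are CADM3, the highest of these, and ACKR1.

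Likeness over all 18 libraries was measured by Pearson's correlation of log2(normalized count + 1) among 15897 genes with a mean of at least 10. The genes most like CADM3 were TNFRSF1A (r = 0.985), SRGN (0.983), COLGALT1 (0.982), SH2B3 (0.972) and CHST2 (0.971). Those most like ACKR1 were PISD (0.968), TIMP1 (0.961), CADM3 itself (0.961), SRPX (0.960) and EBI3 (0.958), and ACKR1 was 8th in the list of CADM3. The points share their libraries, and 3 libraries hold all the high values of the pair, so these coefficients are a description. TNFRSF1A, a TNF receptor, illustrates this, since it was 1474.72 to 1922.47 in MCF10AT1 controls and 7201.72 to 9632.99 in METTL3 libraries and so was expressed in both.

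Of the other members of the CADM and nectin family, none had the pattern of CADM3. In MCF10AT1, 1 of the 6 tested of 9 passed the threshold, against 13.0% of all genes. NECTIN4, an epithelial nectin, was 421.71, 307.31 and 467.70 in the controls and 20.70, 7.27 and 9.83 in the METTL3 libraries. It fell by 4.98 on the log2 scale (SE 0.49, adjusted p = 0.000452 by limma) and kept its call in all 6 fits without a library. Without control b NECTIN2 passed too, which made 2 calls. With the replicate letter as a block there were 4 calls, NECTIN4 lower and NECTIN2, NECTIN3 and PVR higher, against 24.5% of all genes.

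The closest relatives of CADM3 stayed low or did not pass the test. CADM1, which is known to bind CADM3, did not exceed 2.45 in MCF10AT1 controls or 14.06 in METTL3 libraries, and CADM2 did not exceed 0.37. CADM4 was 262.42, 234.40 and 170.15 in the controls and 166.81, 101.46 and 121.72 in the METTL3 libraries (log2 difference -0.78, adjusted p = 0.214).

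In MCF10A, 1 of 7 family members passed, against 2.65% of all genes, and it passed the filter on low values only through the controls. CADM1 was 44.67, 90.47 and 66.69 in the controls and 0.62, 0.83 and 3.52 in the METTL3 libraries, the same direction as CADM3 in this line. It fell by 4.79 on the log2 scale (SE 0.56, adjusted p = 0.00833) and kept its call whichever library was left out. PVR, the poliovirus receptor, passed as well without control a or with the replicate letter as a block (adjusted p = 0.0125, lower), which made 2 calls against 7.60% of all genes. In MCF10CA1h, 1 of 6 passed, against 12.8% of all genes: PVR was higher by 0.48 on the log2 scale (adjusted p = 0.0123), but not without control a.

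**Figure D4:**
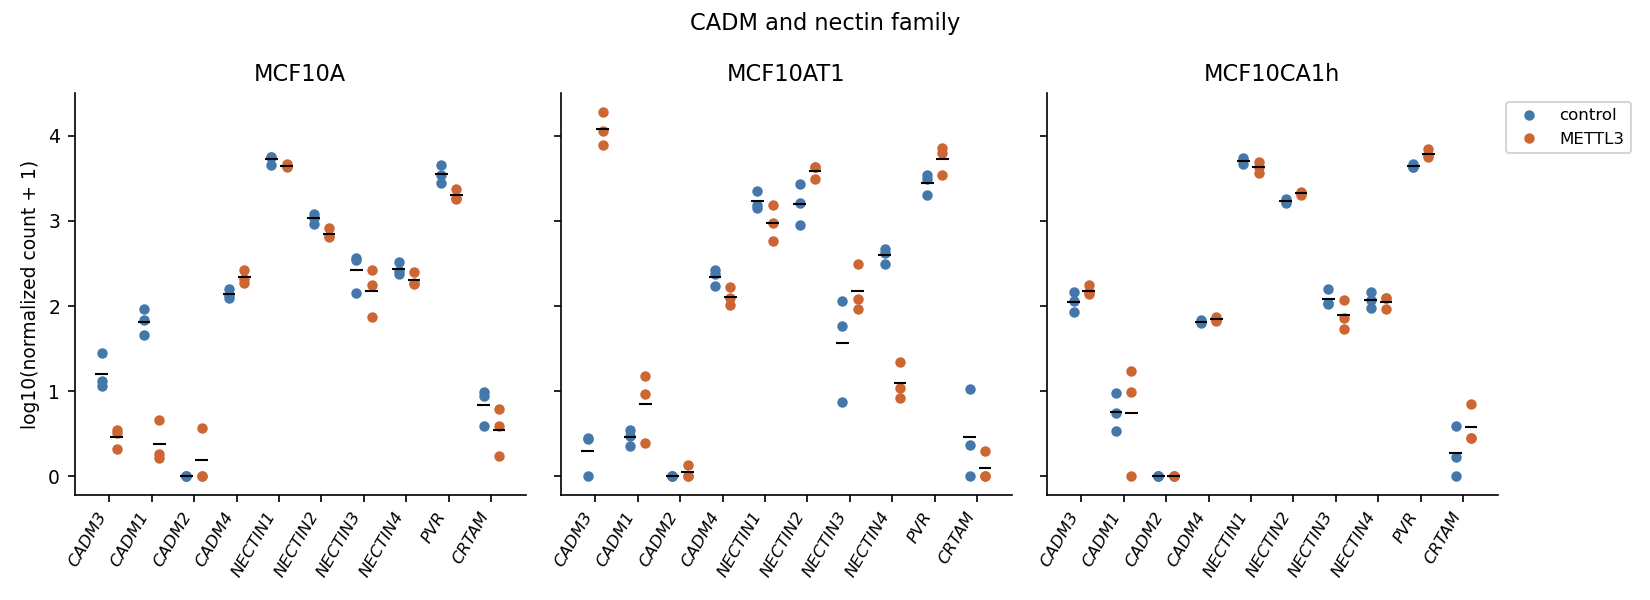
Level of the 10 CADM and nectin family genes as log10(normalized count + 1) in each library (blue, control; orange, METTL3; lines, mean of the 3 plotted values). In MCF10AT1 CADM3 goes from at most 1.81 to at least 7778.66 normalized counts, while NECTIN4 goes from at least 307.31 to at most 20.70.

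Of 12 cytoplasmic partners listed for CADM proteins, 11 had values. In MCF10AT1, 2 of 10 tested were lower, the band 4.1 protein EPB41L1 (log2 difference -1.87, adjusted p = 0.0283) and the polarity scaffold PALS1 (-1.66, adjusted p = 0.0326), against 13.0% of all genes. EPB41L1 kept its call in 1 of 6 fits without a library, that without control b, and PALS1 in 2, those without control b or METTL3 c. With the block, 4 passed, 1 higher and 3 lower, against 24.5% of all genes. MPP2, the lowest of the list, was 7.41 to 14.11 in the controls and 0 to 3.80 in the METTL3 libraries. In MCF10A 0 of 10 passed in limma, against 2.65% of all genes, and 2 had an unadjusted p under 0.05. The block also gave 0 calls there, against 7.60% of all genes. In MCF10CA1h 1 of 11 passed, against 12.8% of all genes. This was EPB41, which was lower (-0.54, adjusted p = 0.0254) and kept its call in 1 of 6 fits, that without METTL3 c.

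ACKR1 was the only atypical chemokine receptor of 6 listed that reached 500 normalized counts in any library. It did so only in the MCF10AT1 METTL3 libraries, on whose values it was chosen, and did not exceed 12.06 elsewhere. ACKR2, a scavenger of CC chemokines, was 10.19, 10.03 and 20.08 in MCF10AT1 controls and 11.25, 3.81 and 11.57 in METTL3 libraries (log2 difference -0.60, adjusted p = 0.621). It was the 1 receptor of the other 5 that could be tested, in MCF10AT1 alone. ACKR3, ACKR4, CCRL2 and GPR182 did not exceed 5.67 in MCF10AT1.

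The signalling receptors that share ligands with ACKR1 were low as well. CXCR1, a receptor of CXCL8, was 59.01, 77.66 and 110.22 in MCF10AT1 controls and 0, 0 and 1.22 in METTL3 libraries, and it fell by 5.95 on the log2 scale (adjusted p = 0.00092 by limma). CCR3 was 24.18, 16.92 and 23.61 in the controls and listed at 0 in all METTL3 libraries (-4.48, adjusted p = 0.00551), a call lost without any 1 of the controls. These were the 2 of the 5 with values that could be tested in MCF10AT1, and both passed the filter on low values only through the controls, so their count is not set against the 13.0% of all genes called. In MCF10CA1h CCR3 was higher instead, with 6.82, 11.69 and 15.90 in the controls and 49.15, 48.31 and 65.55 in the METTL3 libraries (2.21, adjusted p = 0.00484). CXCR2, CCR1 and CCR2 did not exceed 4.59 in any library.

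Of 16 chemokines known to bind ACKR1, 10 had values. In MCF10AT1, 4 of 6 tested were higher, against 13.0% of all genes. CCL2 and CCL5 passed the filter on low values only through the METTL3 libraries, and of the other 4, with both group means of at least 10, 3 were called (10.3% of all such genes). CXCL1, a neutrophil attractant, was 155.43, 76.38 and 78.45 in the controls and 4762.14, 2038.61 and 2732.70 in the METTL3 libraries (log2 difference 4.92, SE 0.42, adjusted p = 0.000239). CXCL8 was 140.72, 50.14 and 277.51 in the controls and 897.71, 637.42 and 2057.32 in the METTL3 libraries (3.06, SE 0.66, adjusted p = 0.0188). CXCL3 (2.60, adjusted p = 0.0342) and the monocyte attractant CCL2 (4.26, adjusted p = 0.0158), listed at 0 in all controls and 49.13, 9.70 and 12.24 in METTL3 libraries, were the others called by limma. CXCL1 kept its call whichever library was left out, CXCL8 and CCL2 in 3 of 6 fits each and CXCL3 in 1 of 6, that without METTL3 b. CXCL1 was the lone call without control a or METTL3 a, and CXCL1 and CCL2 were called without METTL3 c. With libraries scaled to equal sums, 2 of 5 passed, and with the replicate letter as a block CXCL2 passed too (adjusted p = 0.00494). The platelet chemokine PPBP, CXCL6, CXCL11 and CCL17 did not exceed 4.85 in MCF10AT1.

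In MCF10A, 1 of 5 chemokines passed, against 2.65% of all genes, in the other direction. CXCL8 was 604.45, 752.37 and 542.75 in the controls and 257.11, 72.98 and 83.18 in the METTL3 libraries, and it fell by 2.42 on the log2 scale (SE 0.45, adjusted p = 0.0338). This call was lost without control b or c or METTL3 b or c, which left 0 calls, and without control a there were 2, with CXCL11 higher. In MCF10CA1h, 3 of 7 were higher, against 12.8% of all genes. PPBP and CCL5 passed the filter only through the METTL3 libraries, and of the other 5 CXCL3 alone was called (12.6% of all such genes). CCL5 was 7.55, 3.15 and 8.16 in the controls and 81.35, 62.88 and 72.67 in the METTL3 libraries (log2 difference 3.41, adjusted p = 0.000637). PPBP (2.88, adjusted p = 0.00127) and CXCL3 (1.38, adjusted p = 0.0112) were the others, and all of these kept their calls in 6 of 6 fits without a library. CXCL1 in MCF10CA1h was already high, at 2757.79 to 6101.23 in the controls and 4301.77 to 8447.55 in the METTL3 libraries, where ACKR1 did not exceed 12.06.

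**Figure D5:**
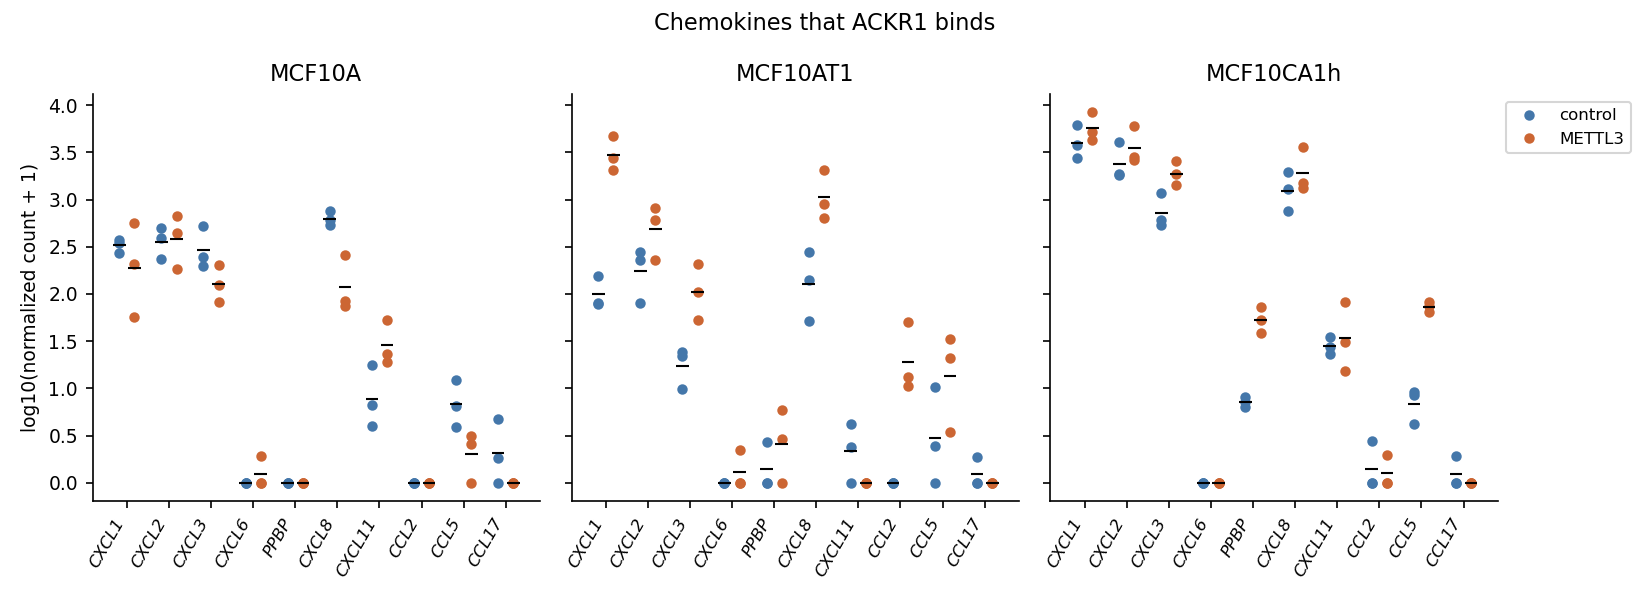
Level of the 10 chemokines with values that ACKR1 binds, as log10(normalized count + 1), in each library (blue, control; orange, METTL3; lines, mean of the 3 plotted values). In MCF10AT1 CXCL1 goes from 76.38 to 155.43 in the controls to 2038.61 to 4762.14 in the METTL3 libraries, while CXCL8 in MCF10A is lower in the METTL3 libraries.

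Because ACKR1 is known from erythroid and endothelial cells and CADM3 from neurons and Schwann cells, markers of these cells were examined in the same libraries. Of 14 endothelial markers, 12 had values, and 0 of 2 tested in MCF10AT1 passed in limma, with 0 at an unadjusted p under 0.05. The summed endothelial level was 260 to 907 in MCF10AT1 controls and 447 to 683 in METTL3 libraries, and most of it was PECAM1, at 225.47 to 849.28 and 377.16 to 634.73. The defining genes CDH5 and CLDN5 were at 0 in all METTL3 libraries, and VWF did not exceed 1.61 in them. PLVAP, a gene of fenestrated and venular endothelium, was 7.50, 8.24 and 6.19 in the METTL3 libraries and listed at 0 in the controls, below the filter. ERG, an endothelial transcription factor, was likewise listed at 0 in the controls and was 45.41, 3.13 and 4.35 in the METTL3 libraries, also below the filter.

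Of 14 erythroid markers, 10 had values. The erythropoietin receptor EPOR was higher in MCF10AT1 METTL3, from 7.55 to 15.22 in the controls to 100.01 to 168.29 (log2 difference 3.50, adjusted p = 0.00256), the 1 call of 2 tested, against 13.0% of all genes. The other marker tested, the globin HBA1, was at 10 or more in every MCF10AT1 library and did not pass. The median log2 difference of the markers tested was 1.28, below that of EPOR. GYPB and HBG2 were at 0 in all MCF10AT1 libraries. The summed erythroid level was 87.0 to 261 in the controls and 202 to 249 in the METTL3 libraries. Of the transcription factors listed for the erythroid lineage, the 1 call of 4 tested in MCF10AT1, against 13.0% of all genes, was LMO2 (16.54, 18.24 and 9.53 against 181.35, 86.08 and 134.68, log2 difference 3.08, adjusted p = 0.0055), which is expressed in blood cell precursors and endothelium. In MCF10A 0 of 3 passed in limma, with 0 at an unadjusted p under 0.05, and in MCF10CA1h LMO2, the 1 call of 4 against 12.8% of all genes, was higher by 1.00 (adjusted p = 0.0284), a call kept in 1 of 6 fits, that without control c. GATA3, the GATA factor of breast epithelium, was 323.11 to 662.15 in the controls and 518.50 to 588.65 in the METTL3 libraries and was not called (adjusted p = 0.85), and GATA2 and KLF1 did not exceed 11.21 in MCF10AT1.

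The summed level of the 7 neuronal markers with values was 20.8 to 35.9 in MCF10AT1 controls and 32.1 to 67.3 in METTL3 libraries, and 0 of 1 tested passed in limma, with 0 at an unadjusted p under 0.05. SNAP25, a synaptic vesicle fusion protein, was at 29.00, 4.65 and 1.16 in the latter and 0 in the controls. Of 8 Schwann cell markers, SOX10, S100B and PMP2 were at 0 in all MCF10AT1 libraries. ERBB3, a neuregulin receptor, was lower (log2 difference -6.01, adjusted p = 0.000288). The summed Schwann cell level was 928 to 1087 in the controls and 175 to 246 in the METTL3 libraries. Of 8 leukocyte markers, 6 had values, and their sum was 776 to 1527 in the controls and 1972 to 2965 in the METTL3 libraries, nearly all of it CD14 and CD68. PTPRC, CD3E and LYZ were at 0 in all METTL3 libraries, and 0 of 2 leukocyte markers tested passed in limma, with 1 at an unadjusted p under 0.05. The part of these markers in the levels of CADM3 and ACKR1 was not tested.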

How the data were processed

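RNA of 18 stranded libraries was sequenced by the authors. Per the methods and processing notes, the authors quantified transcripts of hg38 by pseudo-alignment in kallisto 0.46.1. They imported gene totals through tximport and normalized them in DESeq2 1.26.0 under R 4.1.1. The values as deposited are therefore a scaled signal (normalized counts) and not raw reads. Of 60579 genes, 35933 had values. Depth per gene is unknown, so no counting interval is given.

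Here log2(normalized count + 1) was tested in R 4.3.3 with limma 3.58.1 (lmFit, eBayes with trend), each line alone, where its 6 libraries averaged 10 or more, with two-sided p adjusted by the Benjamini-Hochberg method over all genes tested (threshold 0.05). All adjusted p-values come from limma. The fit was tested on simulated data. Gene positions were taken from GENCODE v44 and the promoter from RefSeq. Python 3.11.15 (SciPy 1.17.1, NumPy 2.4.6, pandas 2.3.3) gave the other values. Alternatives were the joint fit, other pseudocounts, filters, scalings and windows, the replicate block and each library left out.

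The replicate letters come from the sample titles. Deviations from group means of same-letter libraries correlated at 0.221, 0.200 and 0.116 in MCF10A and 0.110, 0.289 and 0.477 in MCF10AT1, so the letters were taken to pair libraries there. No label says that a letter marks a shared batch, so this pairing, and the block built on it, is an assumption.

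Members and gene lists were chosen with earlier results of these data known. Named are both genes, METTL3, the 5 nearest genes with values on each side, overlapping genes, called genes of the lists, the extremes of other lists and the 5 most correlated genes. CADM4, single marker genes and factors beyond these, and the genes of the near-0 pattern were named after their values were seen. Some items of the marker lists are not reported here.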

Additional observations from a re-analysis of the deposited data

Results flagged for a closer look

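The METTL3 minus control differences, on the log2(normalized count + 1) scale, pointed in opposite directions in different lines for 26 of 88 genes. The 88 are the genes named here from the lists and neighbours, and CADM3 and ACKR1 are among the 26. In each line given, every METTL3 library of these 26 genes lay on the same side of every control. The difference between lines was not tested for any of them. Over all 35933 genes, 7.35% had this pattern for some pair of lines. Genes among the 88 were named partly because they were called or after their values were seen. Their share was thus partly fixed by the choice and cannot be set against that percentage. CADM3 was at -2.48 in MCF10A and 12.56 in MCF10AT1, and ACKR1 at -2.22 and 10.73, where the MCF10AT1 values are those that chose the pair and the MCF10A levels were at most 27.28 normalized counts.

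Of the neighbours, TAGLN2 was at -0.41 in MCF10A against 0.68 in MCF10AT1 and 0.35 in MCF10CA1h. SLAMF9 was at -1.79 in MCF10A, below the filter on low values, and 3.06 in MCF10CA1h. In the CADM and nectin family, CADM4 was at 0.65 in MCF10A and -0.78 in MCF10AT1. NECTIN2 was at -0.60 in MCF10A against 1.29 in MCF10AT1 and 0.31 in MCF10CA1h, and PVR was at -0.81 against 0.95 and 0.48 in the same lines. Of the cytoplasmic partners, EPB41L1 was at 0.67 in MCF10A and -1.87 in MCF10AT1, and PALS1 at -1.66 in MCF10AT1 and 0.37 in MCF10CA1h.

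Of the chemokines, CXCL8 was at -2.42 in MCF10A and 3.06 in MCF10AT1, and CCL5 at -1.75 in MCF10A and 3.41 in MCF10CA1h. The receptors CXCR1 and CCR3 were at -5.95 and -4.48 in MCF10AT1 and at 1.40 and 2.21 in MCF10CA1h. GATA3 was at 0.47 in MCF10A and -0.47 in MCF10CA1h.

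Among the cell type markers, the endothelial PECAM1 was at 3.13 in MCF10A and -1.20 in MCF10CA1h, and ERG at 3.33 in MCF10AT1 and -2.06 in MCF10CA1h. VIM was at -0.93 in MCF10A and 4.08 in MCF10AT1, COL3A1 at 8.95 in MCF10AT1 and -1.22 in MCF10CA1h, and FAP at -2.16 in MCF10A and 0.96 in MCF10CA1h. KRT5 was at -4.24 in MCF10AT1 against 0.90 in MCF10A and 0.36 in MCF10CA1h. KRT6A was at -6.97 in MCF10AT1 and 1.42 in MCF10CA1h. ITGB4 was at -0.72 in MCF10A and 0.58 in MCF10CA1h. COL17A1 was at -0.53 in MCF10A and -7.92 in MCF10AT1 against 0.82 in MCF10CA1h, and LAMB3 at -1.35 and -1.06 against 1.43 in the same lines. The leukocyte marker CD14 was at -1.45 in MCF10A and -1.14 in MCF10CA1h against 1.31 in MCF10AT1, and CD68 at -1.77 in MCF10A and 1.05 in MCF10CA1h.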

How the results depend on the processing

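Of 198 alternatives over 15 results, 161 kept the direction and the call or, for a count, stayed within 1.5 times the reported count (so that 4 calls may become 3 or 5), and 1 reversed. The joint fit of 18 libraries left the MCF10A differences of CADM3 (-2.48) and ACKR1 (-2.22) as they were but past the threshold. Its spread was pooled with that of the MCF10AT1 libraries that chose the pair. This fit gave 8 calls of neighbours in MCF10AT1 and 0 in MCF10CA1h, and 5 and 0 of the CADM and nectin family. It gave 1 of the chemokines in MCF10CA1h, and the cause was not tested. A pseudocount of 5 gave 10.93 for CADM3 and 8.41 for ACKR1 in MCF10AT1, and 0.5 gave 11.73 for ACKR1, since controls at 0 take their log2 value from the pseudocount. A mean of at least 50 gave 0 calls of the family in MCF10A and 1 of the chemokines in MCF10CA1h, with fewer genes tested, and no value for either gene in MCF10A or for ACKR1 in MCF10CA1h. Equal sums gave 2 chemokine calls in MCF10AT1, where this scaling moved the median of all genes from 0.02 to -0.15. The replicate block gave 6 calls of neighbours and 4 of the family in MCF10AT1 and 2 of the family in MCF10A. It called 24.5% of all genes in MCF10AT1, 7.60% in MCF10A and 12.4% in MCF10CA1h. In MCF10CA1h it gave 5 of the chemokines, but there same-letter libraries correlated at -0.0112, 0.0173 and 0.0460 and share only a letter. It also gave 5 chemokine calls in MCF10AT1 and 3 of neighbours in MCF10CA1h, and left the other results at the same call or count. A window of 0.5 Mb gave 0 calls in MCF10AT1 and 1 in MCF10CA1h, and 2 Mb gave 5 and 7, as fewer or more genes were tested. With each library left out in turn, neighbours ranged from 0 to 1 in MCF10A and 1 to 3 in MCF10AT1, the family from 1 to 2 in MCF10A, 1 to 2 in MCF10AT1 and 0 to 1 in MCF10CA1h, and the chemokines from 0 to 2 in MCF10A and 1 to 3 in MCF10AT1. The ACKR1 difference in MCF10CA1h ranged from -0.49 to 0.0145, reversed without METTL3 replicate b. Depth per gene is unknown, so levels near 0 cannot be told apart from absence.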
